A study of Mus musculus with 6 samples.

Results

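Potassium channel genes were examined in brain RNA of mouse embryos (embryonic day 16.5). Members were the array rows whose platform annotation names 1 gene only, with a symbol of the Kcna, Kcnb, Kcnc, Kcnd, Kcnf, Kcng, Kcnh, Kcnj, Kcnk, Kcnma, Kcnmb, Kcnn, Kcnq, Kcns, Kcnt, Kcnv or Kcnab subfamilies. There were 84 such rows among 23410 rows that name a gene, and they stood for 81 genes. Of these rows, 81 named 78 channel subunit genes and 3 named antisense RNAs (Kcnd3os, Kcnmb4os1 and Kcnmb4os2), which share the prefix but encode no channel. Kcna2, Kcnh8 and Kcnma1 had 2 rows each. RefSeq lists 83 subunit genes of these subfamilies, and 5 of them had no row naming them alone and were not examined.

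The study compared 3 brains of Tdp2Δ1-3 embryos, called mutants below, with 3 brains of wild-type embryos, at the same age, and the labels name no treatment. Tdp2 encodes the phosphodiesterase that frees DNA ends from trapped topoisomerase II, and the mutant allele lacks its first exons. The whole brain down to the brain stem was read on 1 Affymetrix Mouse Gene 1.0 ST array per embryo, so every value is an average over all brain regions and cell types. The labels call the 3 brains of a genotype biological replicates and give neither sex nor litter. Values are log2 values from which each row's median over the 6 arrays had been removed. Levels therefore cannot be compared between genes, and the tissue could not be checked by the level of brain markers. When the genotypes of a row do not overlap, the same centring makes the highest mutant value and the lowest wild-type value equal in size with opposite sign. In bulk RNA, fewer cells of a type and less RNA per cell cannot be told apart. Tdp2 itself read -1.05, -0.90 and -0.94 in mutants, against 0.90, 1.10 and 1.34 in wild types, a difference of -2.07 ± 0.10 (SE, limma adjusted p = 0.00035), and its row may hold probes outside the deleted exons.

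Potassium channels let potassium ions leave or enter a cell and so set its resting potential, shape its action potentials and limit its firing rate. Voltage-gated channels are built from alpha subunits of the Kcna to Kcnd, Kcnq and Kcnh subfamilies, and electrically silent Kcnf, Kcng, Kcns and Kcnv subunits assemble with Kcnb subunits and alter their currents. Channels of the Kcnma, Kcnn and Kcnt subfamilies open with internal calcium or sodium, Kcnj subunits form inward rectifiers and Kcnk subunits form leak channels. Many of these genes become more strongly expressed as neurons leave the progenitor state and mature, while others serve glia, vessels or epithelia.

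Among the 84 potassium channel rows, 14 were lower in the mutants and none was higher. Calls were made in a limma fit over 23410 rows at a Benjamini-Hochberg adjusted p under 0.05. Over all rows, 6.47% were called, 4.13% lower and 2.34% higher, while the 14 made up 16.7% of the member rows. The called genes were Kcna4, Kcna6, Kcnb2, Kcnc2, Kcnc4 and Kcnd2 of the Kcna to Kcnd alpha subunits, and Kcns2 and Kcnv1 of the silent subunits. The others were Kcnq5, Kcnma1, Kcnt1, the inward rectifier genes Kcnj3 and Kcnj6, and Kcnab1, a cytoplasmic beta subunit. The differences of all 14, mutant minus wild type, lay between -0.77 for Kcnq5 and -0.24 for Kcnj6. The median difference over all member rows was -0.075, against 0.013 over all gene rows.

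**Figure D1:**
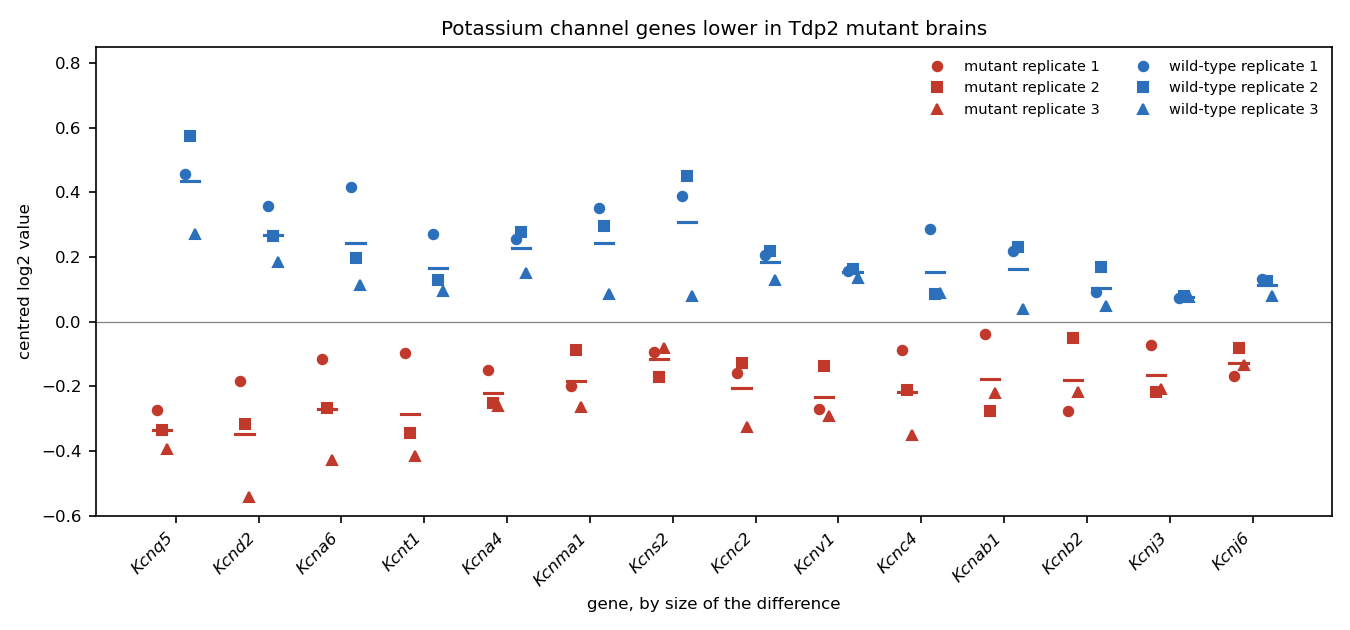
Centred log2 values (vertical axis) of the 14 called genes on each array, mutants in red to the left of wild types in blue, with a bar at each genotype's mean. In every one of these genes the genotypes do not overlap, and the centring then places all 3 mutant values below 0 and all 3 wild-type values above it. Wild-type replicate 3 is the lowest wild type in 12 of the 14.

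The genotypes did not overlap in 30 member rows, with the mutants lower in 26 (31% of members, against 12.6% of all rows) and higher in 4 (4.76%, against 13.1%). The 4 higher ones were Kcnj11, Kcnk5, Kcnn1 and the second row of Kcnma1, and none of these was called. At the 1.5-fold limit of the series text, 0.453% of all rows were called lower and 2 members were, Kcnq5 and Kcnd2.

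Promoter windows of 4 called genes are shown because these genes had the smallest adjusted p among called members with a RefSeq window. All called members were lower, so the shared direction of these 4 follows from the choice. Each window runs from 250 bases before to 50 bases after an annotated start in GRCm38.p6 and is written 5′ to 3′ on the gene's strand. Capitals mark GC boxes (GGGCGG or its complement, bound by Sp factors) and the left core of the RE1 element (CAGCACC or its complement), the element bound by REST, a repressor of neuronal genes. Kcnq5 has 2 windows and Kcnc2 has 4, and the first listed is given.
Kcnq5, chr1:21962601-21962900, minus strand: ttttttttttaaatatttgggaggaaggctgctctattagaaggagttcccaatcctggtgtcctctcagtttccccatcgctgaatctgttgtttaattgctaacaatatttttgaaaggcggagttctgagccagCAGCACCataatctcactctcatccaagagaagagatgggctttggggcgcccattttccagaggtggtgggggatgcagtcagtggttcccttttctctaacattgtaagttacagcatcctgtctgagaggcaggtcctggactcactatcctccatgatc
Kcna4, chr2:107290339-107290638, plus strand: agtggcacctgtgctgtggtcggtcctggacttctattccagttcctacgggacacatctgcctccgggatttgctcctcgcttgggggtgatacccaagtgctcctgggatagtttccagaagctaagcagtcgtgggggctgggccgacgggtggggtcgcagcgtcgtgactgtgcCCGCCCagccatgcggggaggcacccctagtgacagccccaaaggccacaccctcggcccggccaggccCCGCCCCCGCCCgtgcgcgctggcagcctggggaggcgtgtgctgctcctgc
Kcnd2, chr6:21215096-21215395, plus strand: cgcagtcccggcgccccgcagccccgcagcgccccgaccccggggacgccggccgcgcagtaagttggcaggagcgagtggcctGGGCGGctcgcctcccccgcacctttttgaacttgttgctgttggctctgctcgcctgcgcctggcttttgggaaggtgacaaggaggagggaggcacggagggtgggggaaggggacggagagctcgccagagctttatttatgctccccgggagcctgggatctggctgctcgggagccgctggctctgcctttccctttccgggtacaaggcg
Kcnc2, chr10:112269767-112270066, plus strand: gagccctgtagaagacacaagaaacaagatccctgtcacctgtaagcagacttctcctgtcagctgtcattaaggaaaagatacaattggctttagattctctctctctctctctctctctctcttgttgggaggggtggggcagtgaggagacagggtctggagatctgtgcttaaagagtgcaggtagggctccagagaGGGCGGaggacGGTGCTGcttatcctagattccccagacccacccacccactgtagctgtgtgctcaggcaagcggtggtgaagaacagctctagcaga

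Kcna4 held 3 GC boxes, Kcnd2 and Kcnc2 held 1 each, and Kcnq5 held none. The RE1 left core lay once in Kcnq5 and once in Kcnc2. Windows were used for 61 member genes (79 windows), of which 10 were called (17 windows). Members on chromosome 18 (Kcng2 and Kcnn2, neither called) were left out, while the set of all windows was not filtered by chromosome. Searching both strands, a GC box was present in 47.1% of the called genes' windows, 48.1% of member windows and 35.7% of all 32851 windows. The RE1 left core was in 3 of the called genes' windows (17.6%, in Kcnc2, Kcnj6 and Kcnq5), in 12.7% of member windows and in 7.14% of all windows. A longer RE1 core, which is the left core followed after any 2 bases by GGACAG, was in no member window and in 12 of all windows. A TATA box (TATAAA) was in 6.33% of member windows and 13.6% of all windows. These shares were not tested. The median GC content was 58% in the called genes' windows, 58.3% in all member windows and 52.7% in all windows.

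Of the alpha subunits of the Kcna, Kcnb, Kcnc and Kcnd subfamilies, 6 of 16 rows fell and 12 had a negative difference (median -0.17). The strongest fall among them was in Kcnd2, which encodes a main pore subunit of the fast-inactivating A-type current of dendrites. Kcnd2 read -0.18, -0.32 and -0.54 in mutant replicates 1, 2 and 3, against 0.36, 0.27 and 0.18 in wild-type replicates 1, 2 and 3. All mutants lay below all wild types, and mutant replicate 3 was lowest. The difference was -0.62 ± 0.091 (SE), 1.53-fold lower (limma adjusted p = 0.011), and with 1 array left out the adjusted p ran from 0.0057 to 0.063, missing 0.05 without mutant replicate 2 or wild-type replicate 2. Kcnd3, the related A-type subunit, read -0.027, -0.14 and -0.24 in mutants, against 0.068, 0.057 and 0.027 in wild types. Its genotypes did not overlap, but the smaller difference of -0.19 ± 0.060 was not called (adjusted p = 0.11). The 95% interval was -0.83 to -0.41 for Kcnd2 and -0.32 to -0.050 for Kcnd3, and the gap between the genes was not tested. Kcnd1 had a difference of -0.083 (adjusted p = 0.48), and Kcnd3os, the antisense RNA at Kcnd3, had 0.022.

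In the Shaker-related Kcna subfamily, whose channels sit mostly on axons and terminals, Kcna4 and Kcna6 fell and the other 7 rows did not pass. Kcna4 encodes an inactivating subunit and read -0.15, -0.25 and -0.26 in mutants, against 0.26, 0.28 and 0.15 in wild types. Its difference was -0.45 ± 0.054, 1.37-fold lower (limma adjusted p = 0.0069), and the call was lost only without mutant replicate 2 (adjusted p = 0.052). Kcna6, a delayed rectifier subunit, read -0.11, -0.27 and -0.43 in mutants, against 0.42, 0.20 and 0.11 in wild types. The 3 mutants of Kcna6 spread widely, with replicate 3 far below replicate 1. The fall was 0.51 ± 0.098, 1.43-fold (limma adjusted p = 0.024), and it passed only without mutant replicate 1 or wild-type replicate 3 among the fits with 1 array left out (0.013 to 0.11). Kcna2, an axonal subunit, read -0.047, -0.032 and -0.12 in mutants, against 0.23, 0.13 and 0.032 in wild types on its main row, a difference of -0.20 that was not called (adjusted p = 0.095). Its second row, backed by 1 accession, had -0.086 with overlapping genotypes. Kcna1, the axonal partner of Kcna2, had -0.028 (95% interval -0.14 to 0.080), and Kcna3, best known from lymphocytes, had 0.025 (-0.080 to 0.13). Kcna5, Kcna7 and Kcna10, genes known mainly from heart, muscle and other tissues, had positive values of 0.070, 0.13 and 0.071 with overlapping genotypes.

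These Kcna genes lie in clusters. On chromosome 6, Kcna5, Kcna1 and Kcna6 follow each other with no protein-coding gene between them in GRCm38.p6, and Kcna6 alone of the 3 was called. On chromosome 3, Kcna3, Kcna2 and Kcna10 are likewise adjacent, and none of the 3 was called. Kcna4 lies apart from both clusters, on chromosome 2.

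All 3 measured Kcnc genes, whose fast channels allow rapid firing, had negative differences, and 2 were called. Kcnc2, a subunit of interneurons, read -0.16, -0.13 and -0.33 in mutants, against 0.21, 0.22 and 0.13 in wild types. No mutant reached a wild type, and mutant replicate 3 was lowest. The difference was -0.39 ± 0.061 (limma adjusted p = 0.013, or 0.014 to 0.067 with 1 array left out, missing 0.05 without mutant replicate 2 or wild-type replicate 2). Kcnc4 read -0.087, -0.21 and -0.35 in mutants, against 0.29, 0.087 and 0.088 in wild types, a difference of -0.37 ± 0.081 (limma adjusted p = 0.037). Its 2 lower wild types sat close together and wild-type replicate 1 stood well above them. Of the fits with 1 array left out, only that without mutant replicate 1 called Kcnc4 (0.018 to 0.14). Kcnc1 had -0.16 ± 0.070 with overlapping genotypes (adjusted p = 0.23).

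Kcnb2 encodes a delayed rectifier subunit of cell bodies. It read -0.28, -0.050 and -0.22 in mutants, against 0.093, 0.17 and 0.050 in wild types. Mutant replicate 2 was the mutant nearest to the wild types, as in 5 of the 14 called genes. The difference of -0.29 ± 0.066 was called (limma adjusted p = 0.045) but lost its call with any 1 array left out (0.058 to 0.16).

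**Figure D2:**
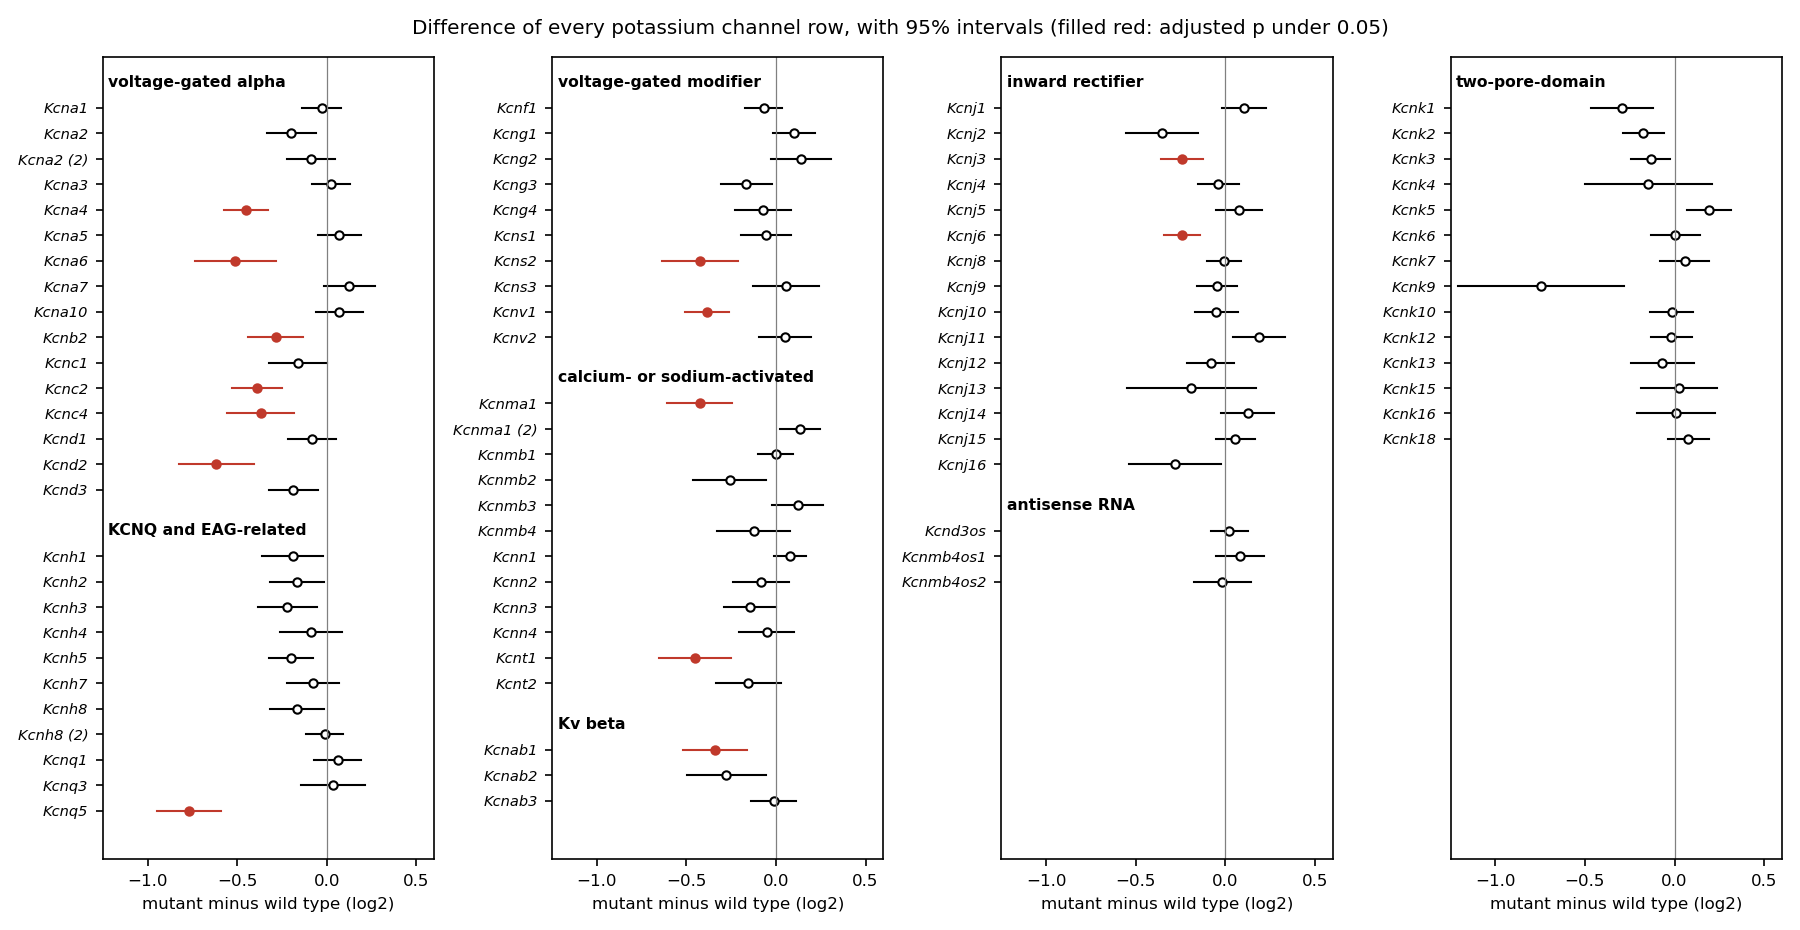
Difference, mutant minus wild type on the log2 scale (horizontal axis), of all 84 member rows grouped by role, with limma's 95% intervals; filled red points are rows with an adjusted p under 0.05 and (2) marks a gene's second row. The called rows all lie left of 0 and are spread over every role but the leak channels (14 rows) and the antisense RNAs (3 rows). Over all gene rows 4.13% were called lower.

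Of 10 silent modifier subunits, Kcnv1 and Kcns2 fell and the other 8 did not pass (median -0.062). Kcnv1 read -0.27, -0.14 and -0.29 in mutants, against 0.16, 0.16 and 0.14 in wild types. The wild types lay within a narrow band and every mutant was well below it. The difference was -0.39 ± 0.052, 1.31-fold lower (limma adjusted p = 0.0093), and it passed with any 1 array left out (0.012 to 0.049). Kcns2 read -0.095, -0.17 and -0.081 in mutants, against 0.39, 0.45 and 0.081 in wild types. Here the mutants lay close together and wild-type replicate 3 was far below the other wild types. The difference of -0.42 ± 0.092 (limma adjusted p = 0.036) lost its call without mutant replicate 2 or 3 or wild-type replicate 1 or 2 (0.012 to 0.15 over the 6 fits). The other members of these subfamilies had smaller values, from -0.17 for Kcng3 (adjusted p = 0.16) to 0.14 for Kcng2 (adjusted p = 0.32). Kcnf1 had -0.068, Kcng1 0.10, Kcng4 -0.073, Kcns1 -0.057, Kcns3 0.054 and Kcnv2, known from the retina, 0.050, all with overlapping genotypes.

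Kcnq5, a subunit of the M-current that holds neurons back from repeated firing, had the largest difference of all members. It read -0.27, -0.34 and -0.39 in mutants, against 0.46, 0.58 and 0.27 in wild types. The gap between the lowest wild type and the highest mutant was wider than the spread of the mutants. The difference came to -0.77 ± 0.078 with 3 brains each, which is 1.7-fold lower (limma adjusted p = 0.0045), and it passed with any 1 array left out (0.0049 to 0.037). Kcnq3, another M-current subunit, read -0.17, 0.086 and 0.13 in mutants, against -0.016, 0.016 and -0.059 in wild types. Its mutants lay on both sides of the wild types, with a difference of 0.037 and an interval of -0.14 to 0.22 that does not meet that of Kcnq5 (-0.95 to -0.59). The difference between the 2 genes was not tested. Kcnq1, known from heart and inner ear, had 0.060 (-0.072 to 0.19).

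None of the 8 Kcnh rows was called, though all 8 had negative differences (median -0.17). Over all gene rows 4.13% were called lower and 43.2% had a negative difference. The Kcnh genes encode ether-a-go-go type channels, including the cardiac and neuronal repolarizing channel Kcnh2. Kcnh5 had the smallest p among them and read -0.043, -0.051 and -0.13 in mutants, against 0.14, 0.19 and 0.043 in wild types (difference -0.20 ± 0.053, adjusted p = 0.067). Kcnh3 had the lowest difference, -0.22 ± 0.071 (adjusted p = 0.12), and in these 2 genes the genotypes did not overlap. Kcnh1, Kcnh2 and the main row of Kcnh8 had -0.19, -0.17 and -0.17, with adjusted p between 0.18 and 0.19. Kcnh4, Kcnh7 and the second row of Kcnh8 had -0.087, -0.078 and -0.013.

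Channels gated by internal ions held 2 falls among 12 rows. Kcnma1 encodes the pore of the large-conductance calcium-activated (BK) channel, which speeds repolarization. Its main row, backed by 20 accessions, read -0.20, -0.086 and -0.26 in mutants, against 0.35, 0.29 and 0.086 in wild types. The genotypes did not overlap, and the difference was -0.43 ± 0.078, 1.34-fold lower (limma adjusted p = 0.021). It lost its call without mutant replicate 2 or 3 or wild-type replicate 1 or 2 (0.017 to 0.093 over the 6 fits). The second Kcnma1 row, backed by 4 accessions, went the other way, at 0.034, 0.14 and 0.050 in mutants, against -0.034, -0.11 and -0.034 in wild types (difference 0.13 ± 0.049, adjusted p = 0.15). All 12 of the nearest rows in identifier order named genes of chromosome 8, whereas Kcnma1 lies on chromosome 14, and whether that second row measures Kcnma1 was not tested. The BK beta subunit genes did not pass, with -0.26 ± 0.088 for Kcnmb2 (adjusted p = 0.13, genotypes apart), -0.12 for Kcnmb4, the main neuronal one, -0.0023 for Kcnmb1, that of smooth muscle, and 0.12 for Kcnmb3. The antisense RNAs Kcnmb4os1 and Kcnmb4os2 had 0.080 and -0.016.

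Kcnt1 encodes a sodium-activated channel that follows bursts of firing. It read -0.096, -0.35 and -0.41 in mutants, against 0.27, 0.13 and 0.096 in wild types. Mutant replicates 2 and 3 were far below mutant replicate 1. The difference was -0.45 ± 0.088, 1.37-fold lower (limma adjusted p = 0.025), lost without mutant replicate 2 or 3 or wild-type replicate 1 or 2 (0.0059 to 0.12 over the 6 fits). Under cyclic loess the difference was -0.29 (adjusted p = 0.022). Its relative Kcnt2 had -0.15 ± 0.079 with overlapping genotypes (adjusted p = 0.32). None of the small-conductance calcium-activated Kcnn genes passed. Kcnn3 had -0.15, Kcnn2 -0.086 and Kcnn4, known from blood cells and epithelia, -0.052. Kcnn1 read 0.031, 0.044 and 0.043 in mutants, against -0.034, -0.031 and -0.053 in wild types, a difference of 0.078 ± 0.039 (adjusted p = 0.30).

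Of 15 inward rectifier genes, Kcnj3 and Kcnj6 fell and 13 did not pass (median -0.046). Both encode subunits of the channels that G-protein-coupled receptors open to quiet neurons. Kcnj6 read -0.17, -0.081 and -0.14 in mutants, against 0.13, 0.13 and 0.081 in wild types, a difference of -0.24 ± 0.044 (limma adjusted p = 0.021). Kcnj3 read -0.073, -0.22 and -0.21 in mutants, against 0.073, 0.079 and 0.076 in wild types, a difference of -0.24 ± 0.051 (limma adjusted p = 0.032). The 3 wild types of Kcnj3 were nearly equal, and mutant replicate 1 was the mutant nearest to them. Kcnj6 lost its call without mutant replicate 2 or 3 or wild-type replicate 1 or 2 (0.032 to 0.094), and Kcnj3 kept it only without mutant replicate 1 (0.011 to 0.14). Under cyclic loess the difference of Kcnj3 was -0.16 and lost its call (adjusted p = 0.065). The remaining subunits of this channel type, Kcnj9 and Kcnj5, had -0.046 (-0.16 to 0.067) and 0.077 (-0.052 to 0.21).

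Kcnj2, which encodes a strong inward rectifier of neurons, muscle and vessels, just missed the threshold. It read -0.032, -0.15 and -0.25 in mutants, against 0.28, 0.032 and 0.31 in wild types, with no overlap and a difference of -0.35 ± 0.087 (adjusted p = 0.053). It passed without mutant replicate 1 or wild-type replicate 2 (0.033 to 0.18 over the 6 fits). Its neighbour Kcnj16, known from glia and kidney and separated by no protein-coding gene on chromosome 11, read -0.054, -0.26 and -0.025 in mutants, against 0.42, 0.025 and 0.061 in wild types. Wild-type replicate 1 of Kcnj16 lay far above the other 5 arrays, and the difference of -0.28 ± 0.11 was not called (adjusted p = 0.19). Kcnj10, the astrocyte potassium-buffering channel gene, had -0.051 with an interval of -0.17 to 0.069. Kcnj8, a gene of pericytes and other mural cells, had -0.0066 (-0.10 to 0.090). Kcnj13, a gene of choroid plexus epithelium, varied widely within each genotype, at 0.24, -0.33 and -0.29 in mutants, against -0.16, 0.16 and 0.18 in wild types. Mutant replicate 1 was its highest array and mutant replicate 2 its lowest. Kcnj11, the pore gene of ATP-sensitive channels, read 0.071, 0.23 and 0.029 in mutants, against -0.029, -0.15 and -0.057 in wild types, the highest difference among inward rectifiers at 0.19 ± 0.063 (adjusted p = 0.13). Kcnj12 and Kcnj4 had -0.080 and -0.038, and Kcnj14, Kcnj1 and Kcnj15 had 0.12, 0.10 and 0.057, all 5 with overlapping genotypes.

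No leak channel gene was called among 14 (median -0.017), and over all rows only 4.13% were called lower. Kcnk9 nevertheless had the second lowest difference of all members. Kcnk9 encodes an acid-sensitive leak channel of neurons and read -0.0074, -0.46 and -0.77 in mutants, against 0.56, 0.44 and 0.0074 in wild types. The genotypes did not overlap, but each spanned a wide range, with mutant replicate 1 and wild-type replicate 3 both near 0. The difference was -0.75 ± 0.20 (adjusted p = 0.068), with an interval of -1.21 to -0.28, and it passed without mutant replicate 1 or wild-type replicate 3 (0.015 to 0.22 over the 6 fits). Kcnk1 read -0.038, -0.091 and -0.25 in mutants, against 0.23, 0.24 and 0.038 in wild types (difference -0.29 ± 0.075, adjusted p = 0.059). Kcnk2, a channel opened by stretch and lipids, and the acid-sensitive Kcnk3 had -0.17 and -0.13 (adjusted p = 0.081 and 0.15). The mutants lay below the wild types in Kcnk1, Kcnk2 and Kcnk3. Kcnk5, an alkaline-activated leak channel best known from kidney, lay on the other side, at 0.080, 0.034 and 0.16 in mutants, against -0.034, -0.16 and -0.11 in wild types (difference 0.19 ± 0.053, adjusted p = 0.076), the highest value of any member. Its neighbour Kcnk16 on chromosome 14 had 0.0091. Kcnk13 and Kcnk6, channels of microglia among other cells, had -0.068 and 0.0052. The remaining 6 genes ranged from -0.15 for Kcnk4 to 0.077 for Kcnk18, all with overlapping genotypes.

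The Kcnab genes encode cytoplasmic beta subunits that bind Kcna channels and speed their inactivation or aid their transport. Kcnab1 read -0.039, -0.28 and -0.22 in mutants, against 0.22, 0.23 and 0.039 in wild types, a difference of -0.34 ± 0.078 (limma adjusted p = 0.042). Mutant replicate 1 and wild-type replicate 3 nearly met, and the call was lost without mutant replicate 2 or 3 or wild-type replicate 1 or 2 (0.014 to 0.17 over the 6 fits). Kcnab2 read 0.0033, -0.15 and -0.36 in mutants, against 0.22, 0.12 and -0.0033 in wild types, a slight overlap, with a difference of -0.28 ± 0.095 that was not called (adjusted p = 0.13). Kcnab3 had -0.012 (-0.14 to 0.11).

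Partner proteins outside these subfamilies were examined as a list of 26 genes, all measured, for auxiliary subunits, sulfonylurea receptors, scaffolds and axonal organizers. Of these 5 fell, none rose and 21 did not pass, with a median of -0.066. The shares over all rows were 4.13% lower and 2.34% higher. Kcnip2 and Dpp10 encode auxiliary subunits of Kcnd channels. Kcnip2 read -0.15, -0.37 and -0.41 in mutants, against 0.33, 0.15 and 0.26 in wild types (difference -0.56 ± 0.079, limma adjusted p = 0.010). Dpp10 read -0.14, -0.37 and -0.61 in mutants, against 0.18, 0.31 and 0.14 in wild types (difference -0.58 ± 0.11, limma adjusted p = 0.024). Both had no overlap between genotypes, as Kcnd2 did, and mutant replicate 3 was the lowest array in all 3 genes. With 1 array left out the adjusted p ran from 0.0042 to 0.064 for Kcnip2, missing 0.05 without mutant replicate 2, and from 0.0059 to 0.10 for Dpp10, missing it without mutant replicate 2 or wild-type replicate 1 or 2. Under cyclic loess the difference of Dpp10 was -0.31 (adjusted p = 0.021). Their relatives Dpp6 and Kcnip1 narrowly failed, with -0.34 ± 0.083 (adjusted p = 0.051) and -0.26 ± 0.065 (adjusted p = 0.054). Lgi1, a secreted protein found with Kcna channels at terminals, fell by 0.45 (adjusted p = 0.015), and Lrrc55, an auxiliary subunit of BK channels, fell by 0.25 (adjusted p = 0.031). Dlg2, a membrane scaffold that binds Kcna and Kcnj channels among many other proteins, fell by 0.57 (limma adjusted p = 0.0041). Over the same 6 fits Dlg2 kept its call (0.0050 to 0.037), Lgi1 lost it without mutant replicate 2 or wild-type replicate 2 (0.010 to 0.072), and Lrrc55 kept it only without mutant replicate 1 or wild-type replicate 3 (0.022 to 0.13). The Kcne genes, small subunits that assemble with Kcnq and other alpha subunits, had values between -0.084 for Kcne5 and 0.11 for Kcne1, and none of the 5 was called.

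On the level of single arrays, the mean over the 84 member rows was -0.041, -0.035 and -0.10 in mutant replicates 1, 2 and 3, against 0.12, 0.050 and 0.0056 in wild-type replicates 1, 2 and 3. Among the 14 called genes, mutant replicate 3 was the lowest mutant in 9 and wild-type replicate 3 the lowest wild type in 12. Marker lists of cell types differed on the same arrays. Genes of mature neurons and synapses averaged -0.093, -0.22 and -0.31 in mutants, against 0.21, 0.16 and 0.096 in wild types, and 12 of 26 fell (median -0.38). Genes of cycling cells averaged 0.19, 0.33 and 0.35 in mutants, against -0.42, -0.22 and -0.20 in wild types, and all 24 rose. Astrocyte genes averaged -0.032, -0.16 and -0.25 in mutants, against 0.22, 0.14 and 0.022 in wild types, with 6 of 12 lower and 1 higher. Mutant replicate 3 and wild-type replicate 1 were thus the extremes of the neuronal, astrocyte and potassium channel means alike. They were also the extremes of the cycling, oligodendrocyte and partner means. These 2 arrays had the widest spread over all gene rows, with SDs of 0.15 and 0.13, against 0.084 to 0.11 on the others. The part of cell composition in the potassium channel differences was not tested.

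**Figure D3:**
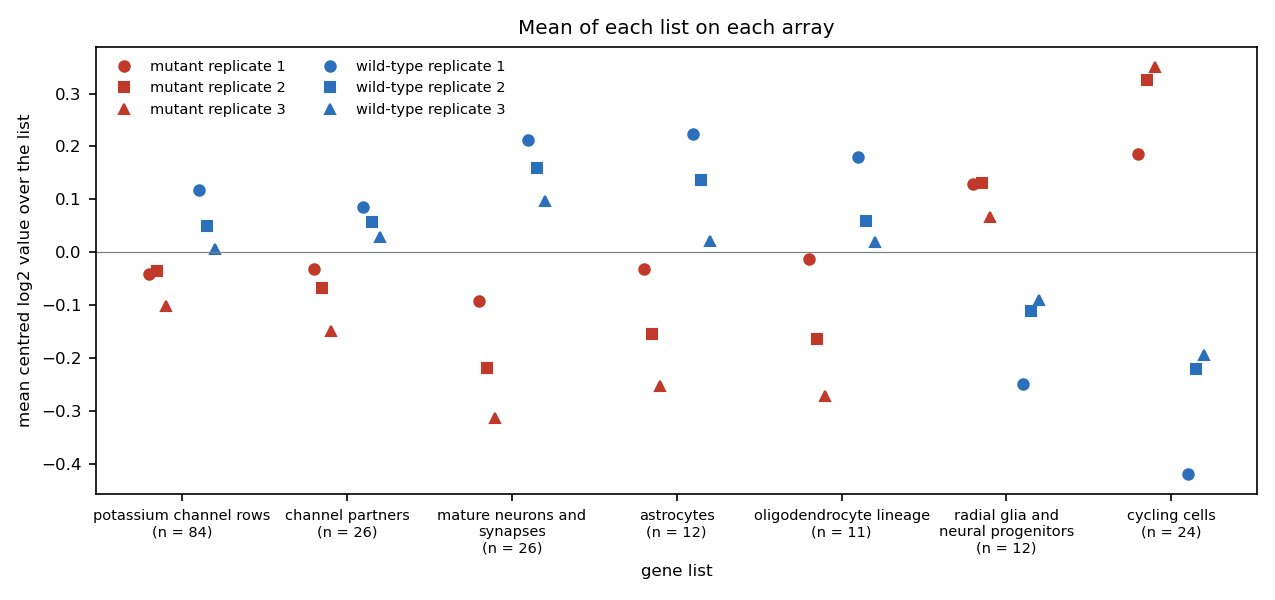
Mean centred log2 value over each gene list (vertical axis) on each array, mutants in red to the left of wild types in blue, with the number of measured genes under each list. The potassium channel rows, their partners and the neuronal, astrocyte and oligodendrocyte lists lie lower on the mutant arrays, and the progenitor and cycling lists lie higher.

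Markers of further cell types that a whole brain can hold gave the following means and calls, where 4.13% of all rows were called lower and 2.34% higher. Radial glia and progenitor genes had array means of 0.066 to 0.13 in mutants, against -0.25 to -0.090 in wild types (6 higher of 12). Oligodendrocyte lineage genes had array means of -0.27 to -0.014 in mutants, against 0.019 to 0.18 in wild types (2 lower of 11). Endothelial and pericyte genes had array means of -0.11 to -0.0082 in mutants, against 0.020 to 0.056 in wild types (2 lower of 16). The progenitor means were higher in every mutant than in any wild type, and those of the oligodendrocyte and vessel lists lower. Microglial genes had array means of -0.029 to 0.022 in mutants, against -0.045 to 0.018 in wild types (none called of 10). Choroid plexus, meningeal and ependymal genes had array means of -0.16 to 0.086 in mutants, against -0.023 to 0.053 in wild types (2 lower of 12). Red blood cell genes had array means of 0.31 to 0.33 in mutants, against -0.40 to -0.33 in wild types (2 higher of 8). The red blood cell means rest on the embryonic globin genes Hbb-y and Hba-x, with differences of 3.79 and 1.44, while the other 6 genes lay between -0.072 and 0.14.

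Genomic span differed widely among members. The 14 called genes had a median span of 191 kb in GRCm38.p6, against 30.9 kb for the 64 subunit genes that were not called. Over all genes with a row, the median span was 72.8 kb for genes called lower and 17.7 kb for all. The longest called members were Kcnma1 (713 kb), Kcnq5 (564 kb) and Kcnd2 (514 kb), and the shortest was Kcns2 (6.05 kb). Of the 21 subunit genes over 100 kb, 8 were called lower (38.1%), against 379 of 2294 named genes of that length (16.5%). Long genes were also among those not called, since Kcnh7 (491 kb) had a difference of -0.078 and Kcnq1 (320 kb) one of 0.060. These spans are a description and were not tested.

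The number of called members depended on the arrays used. With mutant replicate 1 left out, 19 members were lower (7% of all rows), and without mutant replicate 2 or 3, 2 and 5 were (0.483% and 1.7% of all rows). Without wild-type replicates 1, 2 and 3 in turn, 5, 4 and 13 members were lower (1.95%, 0.927% and 3.15% of all rows). Kcnq5 and Kcnv1 passed in all 6 of these fits and Kcna4 in 5. In none of the 6 was a member called higher. With arrays weighted by their agreement, 26 members were lower (11.9% of all rows) and 9 higher (11.3%), among them Kcnj11, Kcnk5 and Kcng2.

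**Figure D4:**
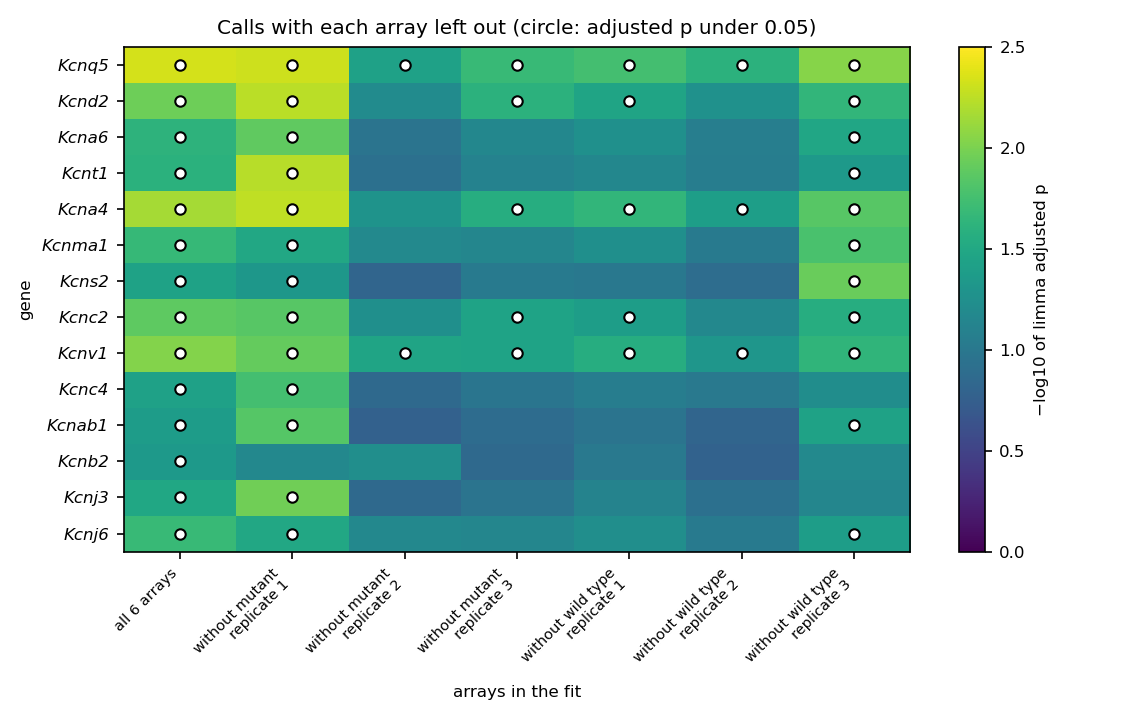
Limma adjusted p, as −log10 (colour), of the 14 called genes (rows) with all 6 arrays and with each array left out (columns); circles mark an adjusted p under 0.05. Kcnq5 and Kcnv1 keep a circle in every column and Kcnb2 only in the first.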

How the data were processed

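The deposited log2 values had been normalized by the authors with RMA, as the series text states; Affymetrix Expression Console is named in the submitters' processing notes. The table itself states no log base. Each row of it had a median of 0 across arrays (largest departure 5e-07), which no label describes and which leaves no level to filter on. Probe summary level and genome build: not given in the sources used here.

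Of 28856 rows, 21789 named 1 gene in the platform annotation, 1621 several and 5446 none. The 23410 rows naming a gene were tested. Symbols were updated by gene identifier through RefSeq's GRCm38.p6 table, where 21698 single-gene rows were found, and chromosomes, spans and promoter windows came from RefSeq too. limma 3.58.1 (R 4.3.3; lmFit and eBayes, two-sided, Benjamini-Hochberg over all rows tested, no block) compared the genotypes. Errors are limma's moderated SEs and n is 3 per genotype. Lists are described by counts and medians, using each gene's row of most accessions. Members and lists were chosen with earlier results of these data known. Named with values are the called members, each subfamily's member of smallest p, highest and lowest difference, and the partner genes that were called or next by p. Marker lists are given as counts and means, and other members where their subfamily is described.

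In simulated data for mutant against wild type (3 arrays each, 23410 rows, 200 changed, 10 rounds) the fit found 52.6% of 1.2-fold and 99.6% of 1.5-fold changes, with 3.31% of calls false. The simulated noise was normal, independent and equal on all arrays, with row SDs drawn towards their geometric mean. The real arrays were less even, so these rates check the code and do not give the error rates of the real calls. Figures used matplotlib 3.10.9. Alternatives tried were leaving out each array, a block for the replicate number, testing every row, setting array medians equal, cyclic loess, array weights, a robust variance prior, the 1.5-fold limit and a single row for each gene.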

Additional observations from a re-analysis of the deposited data

How the results depend on the processing

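Over all gene rows the count of calls was 1515. It was 2400 with the replicate block, 5425 with array weights and 150 at the 1.5-fold limit, and it ran from 145 to 2501 with 1 array left out. The count of member rows called lower was 14, with 26 under array weights, 2 at the 1.5-fold limit and 2 to 19 with 1 array left out. The count called higher was 0 in every setting but array weights, where it was 9. Array weights were 3.65 for wild-type replicate 2, 2.25 for mutant replicate 2 and 0.445 to 0.755 for the other 4. The share of lower among all calls was 63.8%, or 51.3% with array weights. The median difference of member rows was -0.075, ran from -0.095 to -0.031 with 1 array left out, and otherwise lay between -0.083 with cyclic loess and -0.041 with array weights. The causes were not tested.

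With the replicate block 21 members were lower, the 14 and 7 more (Kcnh1, Kcnh5, Kcnj2, Kcnk1, Kcnk9, Kcnmb2 and Kcnab2). The share of all rows called lower rose too, from 4.13% to 6.39%. The series text speaks of pairs of brains without saying that the numbers mark them. Deviations of same-numbered arrays correlated at 0.21, 0.047 and 0.20 over gene rows. Mutant replicate 2 correlated at 0.057 with wild-type replicate 3, close to its 0.047 with wild-type replicate 2. These values do not settle whether the numbers mark pairs, and the main fit used no block because no label states one.

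Over members, Tdp2 and 7 partner genes, called differences kept their call in 199 recomputations and lost it in 61, and those not called stayed so in 841, became called in 53 and changed sign in 39. All 14 called members stayed lower in every setting, but their genotypes do not overlap, so leaving out or weighting arrays could not turn their sign. Kcnb2, Kcns2, Kcnab1 and Kcnc4 lost their calls when all rows of the table were tested, and Kcnb2 and Kcnj3 with cyclic loess. Among members, signs turned only in those not called. Called members could have turned only with equal array medians or cyclic loess. With cyclic loess the turned differences were Kcnmb4os2 0.026, Kcnk16 -0.0024. With array weights the turned differences were Kcnmb4os2 0.089, Kcnmb1 0.011, Kcnab3 0.0088, Kcnk13 0.049, Kcnk12 0.018, Kcnj8 0.011. With equal array medians the turned differences were Kcnk6 -0.00019. With 1 array left out the ranges that crossed 0 were Kcnab3 -0.048 to 0.028, Kcnd3os -0.0010 to 0.047, Kcnh8 second row -0.039 to 0.016, Kcnj8 -0.016 to 0.011, Kcnk10 -0.059 to 0.014, Kcnk12 -0.050 to 0.018, Kcnk15 -0.028 to 0.14, Kcnk16 -0.066 to 0.099, Kcnk4 -0.33 to 0.0044, Kcnk6 -0.050 to 0.045, Kcnmb1 -0.020 to 0.0097, Kcnmb4os2 -0.083 to 0.027, Kcnn4 -0.099 to 0.0039, Kcnq3 -0.020 to 0.13, Kcns1 -0.11 to 0.0018, Kcns3 -0.025 to 0.14. In the simulation with 3 arrays each and equal, independent noise, 52.6% of 1.2-fold and 99.6% of 1.5-fold changes were recovered. These rates need not hold for the real arrays.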
